A study of Mus musculus with 16 samples.

Results

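Calls for 10 activity-induced immediate early genes, Fos, Fosb, Fosl2, Junb, Egr1, Egr2, Egr3, Egr4, Npas4 and Arc, were followed across mouse cerebellum and the rest of the brain. The genes were chosen with earlier results of these data known. A probe set, the group of short probes that reads a transcript on an Affymetrix array, was included when its only gene symbol in the platform annotation was one of these names. This gave 13 of the 45101 probe sets on the array, and 10 of the 18194 genes named by a single symbol. Fosl2, Egr2 and Egr3 had 2 probe sets each, the other genes had 1, and no probe set with several symbols held a member.

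The study asked how gene expression in the cerebellum depends on a brain isoform of Pgc1α whose transcript begins at a simple sequence repeat and carries an exon from a short interspersed nuclear element (SINE), and the rest of the brain served as its control. SINE KO mice, called KO here, were homozygous for a 4-bp deletion made with CRISPR/Cas9 in C57BL/6J embryos just after the presumed start codon in the SINE exon, and the controls were WT littermates of matched age. There were 8 groups of 2 arrays: WT female cerebellum, WT male cerebellum, KO female cerebellum, KO male cerebellum, and the same 4 combinations for the rest of the brain. No treatment separated the groups, the ages are not given in the labels, and brain stem remnants had been trimmed away by hand before each fresh brain was divided and frozen. The KO is a single line from 1 founder, every cell of the animal carries the deletion, and the SINE transcript and the reference isoform are still made. The methods describe the 2 specimens of a group as independent, whereas the labels give only replicate numbers, so p-values measure the spread between these samples. Because each brain was divided, a cerebellum and a rest-of-brain sample may come from the same mouse, which the labels do not say. Comparisons of genotype or sex over all 16 arrays may then count a mouse more than once, which makes their p-values too small, and they are given within each brain part as well.

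Immediate early genes are transcribed within minutes of a stimulus without new protein synthesis, which makes their mRNA a widely used trace of recent neuronal firing. Synaptic activity and calcium entry act on factors already bound near these genes, among them CREB at cAMP response elements (CRE) and SRF at CArG boxes. Most of the products are transcription factors that switch on later genes, whereas Arc acts directly at synapses.

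The deposited values take 5 levels. Level 2 was read as detected, level 1 as marginal, and levels 0, -1 and -2 as not detected, a reading that rests on the values and is stated by no source used here. Of all values, 59.7% were at level 2 and 1.51% at level 1. The arrays detected between 25517 and 28155 probe sets each, and replicates of a group differed in 5.98% to 7.95% of their calls. The labelled sexes held, as both probe sets of the Y-linked Eif2s3y were detected on every male array alone, and 2 of the 3 for Xist on every female array alone. All 5 probe sets of Ppargc1a, the gene of Pgc1α, were detected on all 16 arrays, but a deletion of 4 bp that leaves the transcript in place cannot be checked this way. The WT female cerebellum replicate 2 stood apart: it detected 13 of 19 granule cell marker probe sets and 7 of 11 Purkinje cell ones, against 16 to 18 and 11 on the other cerebellum arrays, and 6 of 8 striatal ones against 3 to 5. Without it, Junb (adjusted p = 0.00288), Egr2 1427683_at and Egr4 (both 0.0371) were still called between the brain parts over the probe sets that could be tested (Fisher's exact test), and the other results it moves are given beside their values. Since a call carries no amount, a gene detected in both brain parts may still be more abundant in one, and in these tissue samples fewer cells of a type and less RNA per cell cannot be told apart.

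The upstream sequences of 5 members are shown because CREB and SRF sites are the textbook route by which firing reaches these genes, and because these members had the most different calls: Fos was detected everywhere, Junb, Egr2 and Egr4 only in the rest of the brain, and Npas4 everywhere but in one group. Each is the 250 bases before an annotated transcription start, 5′ to 3′ on the gene's strand, from RefSeq on GRCm38.p6. Capitals mark the CRE core TGACG on either strand (CGTCA where it lies on the other strand) and, in Egr2, the CArG box. The windows are chr12:85473640-85473889 (plus strand) for Fos, chr8:84978749-84978998 (minus) for Junb, chr10:67537619-67537868 (plus) for Egr2, the middle of its 5 annotated starts, chr6:85513590-85513839 (minus) for Egr4 and chr19:4989972-4990221 (minus) for Npas4.
Fos: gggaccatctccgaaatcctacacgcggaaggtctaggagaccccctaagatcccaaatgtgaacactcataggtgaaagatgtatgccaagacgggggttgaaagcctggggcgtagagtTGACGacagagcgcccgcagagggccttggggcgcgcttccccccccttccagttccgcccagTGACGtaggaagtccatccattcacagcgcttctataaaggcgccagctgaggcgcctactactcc
Junb: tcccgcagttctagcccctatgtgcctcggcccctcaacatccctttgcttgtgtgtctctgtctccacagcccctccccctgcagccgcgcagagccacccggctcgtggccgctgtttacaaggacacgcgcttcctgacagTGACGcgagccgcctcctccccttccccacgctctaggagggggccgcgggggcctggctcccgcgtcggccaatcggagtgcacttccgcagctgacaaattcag
Egr2: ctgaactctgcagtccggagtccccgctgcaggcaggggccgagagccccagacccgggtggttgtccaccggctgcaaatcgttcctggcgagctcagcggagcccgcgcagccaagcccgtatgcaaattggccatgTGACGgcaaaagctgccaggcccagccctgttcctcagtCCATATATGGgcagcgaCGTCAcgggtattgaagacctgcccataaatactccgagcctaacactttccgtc
Egr4: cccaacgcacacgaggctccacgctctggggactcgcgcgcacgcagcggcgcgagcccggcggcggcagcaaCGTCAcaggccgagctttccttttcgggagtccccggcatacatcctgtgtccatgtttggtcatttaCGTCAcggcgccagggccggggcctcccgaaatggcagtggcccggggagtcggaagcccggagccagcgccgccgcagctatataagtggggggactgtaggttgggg
Npas4: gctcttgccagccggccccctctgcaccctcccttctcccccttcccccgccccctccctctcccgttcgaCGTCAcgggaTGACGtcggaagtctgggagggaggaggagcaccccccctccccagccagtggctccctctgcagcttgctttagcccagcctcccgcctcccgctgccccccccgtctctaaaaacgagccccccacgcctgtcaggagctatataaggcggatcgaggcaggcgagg
The windows of Fosb and Fosl2 were searched too, which makes 7 of the 10 genes, and none was used for Egr1, Egr3 and Arc. TGACG stood in 6 of the 7 windows, all but that of Fosl2, and in 17.8% of all 32851 RefSeq windows of this length. In Fos it began 129 and 66 bases before the start, in Junb 106, in Egr2 111 and 55, in Egr4 177 and 109, in Npas4 179 and 169, and in Fosb 60. Within these 250 bases the CArG box was found in Egr2 alone, 72 bases before the start, and in 1.47% of all windows. Sites further upstream were not searched, so the other members may carry one there. The binding site of the Egr proteins themselves, GCGGGGGCG, stood in the windows of Fosb and Fosl2 and in 2.57% of all windows. Neither the full palindrome TGACGTCA, which contains TGACG, nor the AP-1 site TGACTCA was found in the 7 windows, against 1.55% and 4.46% of all windows. A match is a stretch of letters and not a measured binding site, and the genes with and without calls in the cerebellum both carried the core.

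Immediate early gene probe sets were detected more often in the rest of the brain than in the cerebellum, with overlap at 1 value only. In the cerebellum, the WT female arrays detected 6 and 5 of the 13, the WT male arrays 7 and 8, the KO female arrays 7 and 5, and the KO male arrays 7 and 6. In the rest of the brain the numbers were 11 and 10 in WT females, 11 and 11 in WT males, 9 and 8 in KO females, and 12 and 11 in KO males. The highest cerebellum array, WT male replicate 2, equalled the lowest rest-of-brain array, KO female replicate 2, at 8 probe sets. The means were 6.38 ± 1.06 (SD, n = 8) and 10.4 ± 1.30 (SD, n = 8), a difference of -4 probe sets (cerebellum minus rest of brain), and -3.80 without the WT female cerebellum replicate 2. The SD between replicates within groups was 0.791. Over all probe sets the brain parts lay closer, at 26654 ± 596 (SD, n = 8) in the cerebellum and 27189 ± 472 (SD, n = 8) in the rest of the brain.

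**Figure D1:**
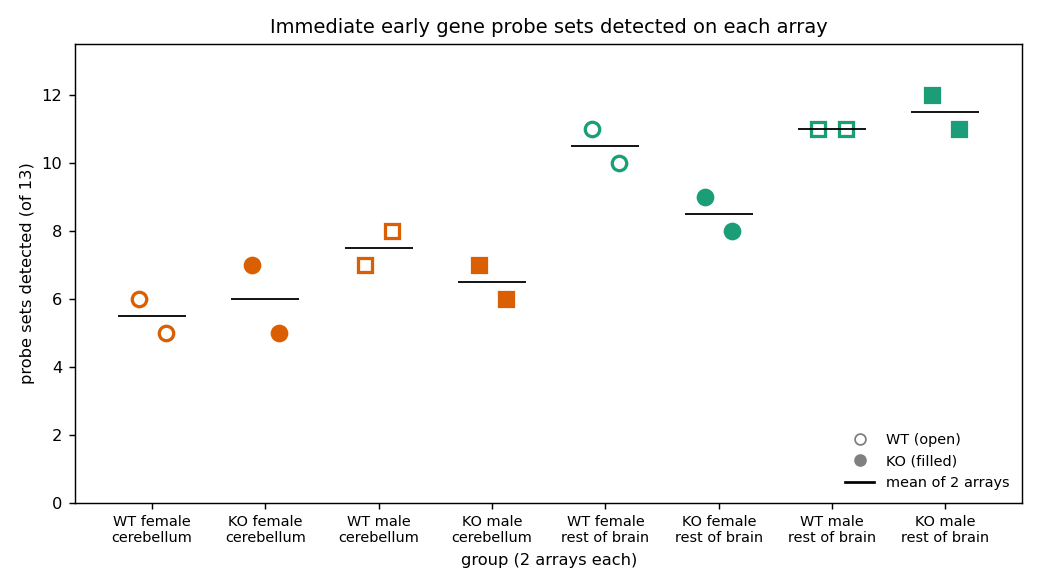
Number of the 13 immediate early gene probe sets detected on each of the 16 arrays (vertical axis, probe sets) by group (horizontal axis), with open symbols for WT, filled symbols for KO, circles for females, squares for males and a bar at the mean of the 2 arrays. Cerebellum arrays (orange) lie between 5 and 8 and rest-of-brain arrays (green) between 8 and 12.

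Counted by probe set, 3 members were detected on all 16 arrays (Fos, Egr1 and 1 of Fosl2), 1 on none (1 of Egr3) and 9 on some, whereas 48.0% of all probe sets were detected on all arrays and 25.0% on some. Of the 13, 8 were detected on more arrays of the rest of the brain, 1 on more cerebellum arrays and 4 on equally many. Over the whole array, 12.7% of probe sets were detected on more rest-of-brain arrays, 9.64% on more cerebellum arrays and 77.7% on equally many. The median difference (cerebellum minus rest of brain) was -2 arrays over the members and 0 over all probe sets. Limited to probe sets detected on some arrays, 8 of 9 members and 50.7% of all 11269 lay towards the rest of the brain, and the median was -3 for the 9 members and -1 for all.

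**Figure D2:**
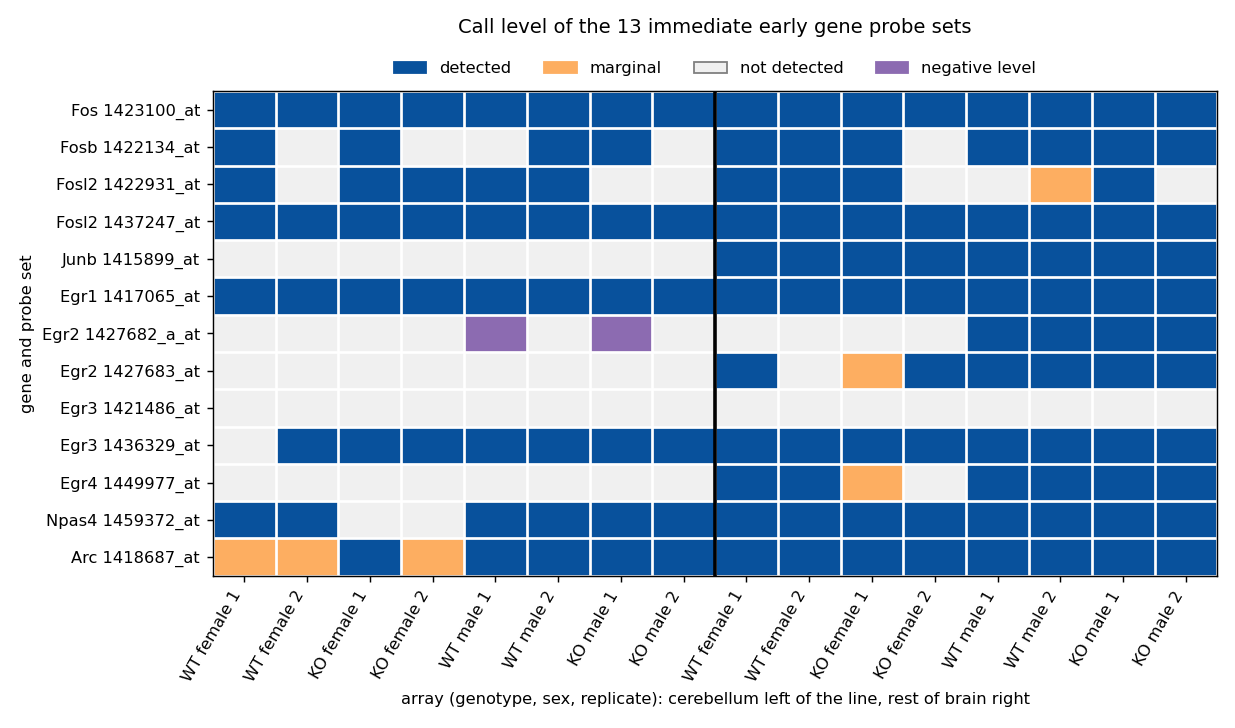
Call of each of the 13 probe sets (rows) on each of the 16 arrays (columns, cerebellum left of the black line and rest of brain right), with blue for detected, orange for marginal, grey for not detected and purple for a negative level. Junb, Egr4 and both Egr2 probe sets have no detected call left of the line, and Fos, Egr1 and Fosl2 1437247_at are detected throughout.

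Fos, Fosb, Fosl2 and Junb encode subunits of AP-1, a dimer in which a Fos family protein pairs with a Jun family protein. Junb (1415899_at, gene at chr8:84976909-84978748 on GRCm38.p6, as for the genes that follow) had the largest difference of the members. It was at level 0 on all 8 cerebellum arrays and at level 2 on all 8 rest-of-brain arrays, in both sexes and both genotypes, so the brain parts did not overlap. This complete switch gives the smallest p that 8 against 8 arrays allow (p = 0.000155, Fisher's exact test, two-sided), and 115 of the 45101 probe sets (0.255%) had it in the same direction. After Benjamini-Hochberg adjustment over all probe sets the value for Junb was 0.0501 (Fisher's exact test), just outside the threshold of 0.05. The WT female cerebellum replicate 2 did not detect Junb either, and without that array the adjusted value was 0.0273 (Fisher's exact test). The unadjusted p of a complete switch stays the same with an array fewer, so this fall came from the number of switches and not from Junb.

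Fos (1423100_at, chr12:85473890-85477274), the founding member of the group, was at level 2 on all 16 arrays, so its calls carry no comparison. Fosb (1422134_at, chr7:19302696-19310118), whose truncated product ΔFosB accumulates with repeated stimulation, was detected on 4 cerebellum and 7 rest-of-brain arrays. In the cerebellum it was detected on 1 of the 2 arrays of every group, and in the rest of the brain it was missed only on the KO female replicate 2. The brain parts overlapped (p = 0.282, Fisher's exact test, two-sided).

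Fosl2, which encodes Fra-2 (chr5:32136472-32157840), was read by a pair of probe sets that differed. 1437247_at was detected on all 16 arrays. 1422931_at was detected on 5 cerebellum and 4 rest-of-brain arrays, the only member with more cerebellum arrays. It was missed on the WT female cerebellum replicate 2, both KO male cerebellum arrays, the WT male rest-of-brain replicate 1, the KO female replicate 2 and the KO male replicate 2 of the rest of the brain, and was marginal on the WT male rest-of-brain replicate 2. These misses were spread over both brain parts and both genotypes.

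Egr1 to Egr4 encode zinc finger transcription factors that bind a shared GC-rich site. Egr1 (1417065_at), also called Zif268 and a common marker of active neurons, was at level 2 on all 16 arrays. Of the 6 Egr probe sets, cerebellum arrays detected 1 or 2, the 4 male rest-of-brain arrays 5 each and the 4 female rest-of-brain arrays 2 to 4. The brain parts met at 2 probe sets, on the KO female rest-of-brain replicate 1.

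Egr4 (1449977_at, chr6:85511121-85513589) was at level 0 on all 8 cerebellum arrays. In the rest of the brain it was detected on both arrays of WT females, WT males and KO males, was marginal on the KO female replicate 1 and at level 0 on the KO female replicate 2. It was thus detected on 0 and 6 arrays (p = 0.00699, Fisher's exact test, two-sided; 0.476 after adjustment over all probe sets).

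Egr2 (chr10:67534469-67542188), or Krox20, which also directs hindbrain segmentation and myelination by Schwann cells, was absent from the cerebellum calls on both of its probe sets. 1427683_at was at level 0 on the 8 cerebellum arrays and was detected on 6 rest-of-brain arrays: both WT male and both KO male arrays, the WT female replicate 1 and the KO female replicate 2. The KO female replicate 1 was marginal and the WT female replicate 2 at level 0. Its p was that of Egr4 (0.00699, Fisher's exact test). 1427682_a_at was detected on the 4 male rest-of-brain arrays and on none of the other 12, and it was at a negative level on the WT male cerebellum replicate 1 (level -2) and the KO male cerebellum replicate 1 (level -1). The Egr2 probe sets gave the same call on 14 of 16 arrays, and both differences were female rest-of-brain arrays.

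Egr3 (chr14:70077317-70082613), needed for muscle spindle development and induced downstream of other early factors, also had probe sets that differed. 1421486_at was at level 0 on all 16 arrays, whereas 1436329_at was detected on every array but the WT female cerebellum replicate 1. Having 15 of 16 arrays was common, with 1211 probe sets (2.69%).

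Npas4 (1459372_at, chr19:4984353-5003439), a neuronal PAS domain factor that responds chiefly to calcium entry and shapes inhibitory synapses, was detected on all 8 rest-of-brain arrays and on 6 cerebellum arrays. Those that missed it were both KO female cerebellum arrays, at level 0, and every other array was at level 2. Of the 45101 probe sets, 4 (0.00887%), Npas4 among them, had exactly this pattern, which was read from Npas4 itself. Looking at the female cerebellum alone, 320 (0.71%) were on both WT and neither KO array, and 335 (0.743%) the reverse. Arc (1418687_at, chr15:74669081-74672570), whose mRNA travels to dendrites and whose protein promotes removal of AMPA receptors from synapses, was detected on all 8 rest-of-brain arrays and on 5 cerebellum arrays. Its remaining cerebellum arrays, both WT females and the KO female replicate 2, were marginal, so no array was at level 0. The brain parts overlapped for Npas4 (p = 0.467, Fisher's exact test, two-sided) and for Arc (p = 0.2, Fisher's exact test, two-sided).

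**Figure D3:**
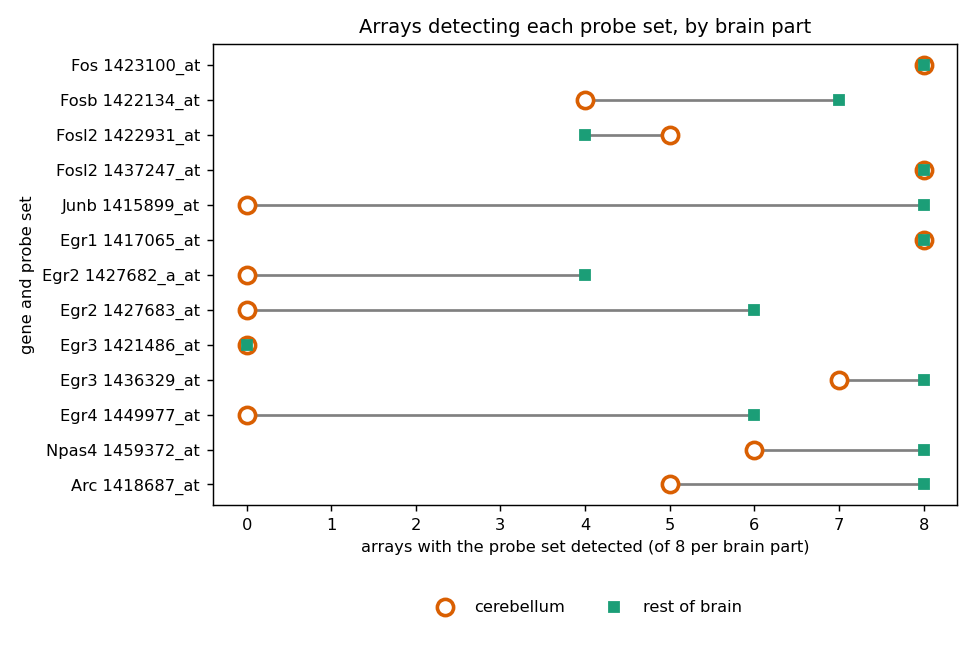
Number of arrays (horizontal axis, of 8 in each brain part) that detected each of the 13 probe sets (vertical axis), with open circles for the cerebellum and squares for the rest of the brain, joined by a line. Junb spans 0 to 8 arrays, Egr4 and Egr2 1427683_at 0 to 6, and Fosl2 1422931_at is the only probe set with the circle on the right.

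By gene, with a gene counted where any of its probe sets was detected, the cerebellum order was Fos, Fosl2 and Egr1 on 8 arrays, Egr3 on 7, Npas4 on 6, Arc on 5, Fosb on 4, and Junb, Egr2 and Egr4 on 0. In the rest of the brain, Fos, Fosl2, Junb, Egr1, Egr3, Npas4 and Arc were on 8 arrays, Fosb on 7, and Egr2 and Egr4 on 6. Neighbours in either order were at most 1 array apart, which is within the spread of single arrays, except for the step in the cerebellum from Fosb, on 4 arrays, to Junb, Egr2 and Egr4, on 0. The order counts arrays and does not rank the amount of mRNA between genes.

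Tested over all 45101 probe sets with Fisher's exact test and Benjamini-Hochberg adjustment, none was called between the brain parts (0.0%), and so no member, while 1247 (2.76%) had an unadjusted p under 0.05. At that unadjusted level 3 members lay higher in the rest of the brain (Junb, Egr4 and Egr2 1427683_at), as did 1.73% of all probe sets and 6.91% of those detected on some arrays. The adjustment needs 141 complete switches before it calls any, and there were 25 towards the cerebellum and 115 towards the rest of the brain. Leaving out any single array brought 144 to 257 calls, Junb among them each time, with an adjusted p of 0.0273 to 0.0487 (Fisher's exact test). A complete switch keeps the same p with an array fewer, and further probe sets can only join. These runs therefore say little about how firm the call of Junb is. When the adjustment ran only over the 3873 probe sets detected on 5 to 11 arrays, the range in which this test can reach 0.05, 662 were called (17.1%), of which 447 (11.5%) lay higher in the rest of the brain and 215 (5.55%) in the cerebellum. Of the 5 members in that range, Junb (adjusted p = 0.0043, Fisher's exact test), Egr2 1427683_at and Egr4 (both 0.0409, Fisher's exact test) were called, all higher in the rest of the brain, and Fosb and Fosl2 1422931_at were not.

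KO and WT were compared to ask whether loss of the SINE isoform altered these calls. No member and none of the 45101 probe sets was called (0.0%, Fisher's exact test, two-sided, Benjamini-Hochberg adjusted), and 38 probe sets (0.0843%), no member among them, had an unadjusted p under 0.05. KO arrays detected 8.13 ± 2.42 and WT arrays 8.63 ± 2.45 of the 13 probe sets (SD, n = 8 each). The difference of -0.5 (KO minus WT) is smaller than the SD of 0.791 between replicates. Without the WT female cerebellum replicate 2 it was -1.02. WT then has fewer cerebellum than rest-of-brain arrays, so the gap between the brain parts enters that value. Of the members, 4 were detected on more WT arrays, 2 on more KO arrays and 7 on equally many, and over the whole array 10.4% and 9.11% favoured WT and KO and 80.5% were equal. Where only some arrays detected a probe set, 4 of 9 members and 41.4% of all favoured WT. The median difference was 0 arrays over the members and 0 over all probe sets. Within the cerebellum KO arrays detected 6.25 ± 0.957 and WT arrays 6.5 ± 1.29 of the 13, and within the rest of the brain 10 ± 1.83 and 10.8 ± 0.5 (SD, n = 4 each). With 4 arrays against 4 an exact p cannot fall under 0.0286 (Fisher's exact test, two-sided). Few probe sets reached it, so the adjustment over all could call none in either brain part, and the lack of calls decides nothing. Before adjustment, 17 cerebellum (0.0377%) and 9 rest-of-brain (0.02%) differences, no member among them, had a p under 0.05.

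Junb and both Egr2 probe sets had equal numbers of KO and WT arrays, at 4 and 4, 2 and 2, and 3 and 3. The largest differences by genotype among the members were 2 arrays each, for Npas4 and Egr4, and both lay in females. Npas4 was detected on both WT female cerebellum arrays, 1 of them the replicate 2 that stood apart, and neither KO one, and Egr4 on both WT female rest-of-brain arrays and neither KO one. In males, Npas4 and Egr4 had the same calls in KO and WT. Groups of 2 arrays cannot reach an exact p under 0.333, and 320 probe sets (0.71%) had the Npas4 pattern in the female cerebellum while 335 (0.743%) had its opposite. In the female rest of the brain, 221 (0.49%) had the Egr4 pattern and 203 (0.45%) its opposite. Neither gene passed over all 16 arrays (Npas4, p = 0.467; Egr4, p = 0.608, Fisher's exact test, two-sided), or over the 8 arrays of its brain part (p = 0.429 for each, Fisher's exact test). The sex difference by genotype had an exact p of 0.333 for each gene (permutation of 1296 arrangements, adjusted value 1). Each gene's calls vary only among the KO arrays of a single brain part, so this is the smallest p they allow and it decides nothing.

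Males and females were set side by side because the study profiled them separately. Male arrays detected 9.13 ± 2.36 and female arrays 7.63 ± 2.26 of the 13 probe sets (SD, n = 8 each). The difference was -1.5 (female minus male) against an SD of 0.791 between replicates. It was -1.13 without the WT female cerebellum replicate 2, where females have fewer cerebellum arrays and the gap between the brain parts enters. Over all probe sets the female arrays detected more, at 27194 ± 513 against 26648 ± 555 (SD, n = 8 each). Of the members, 7 were detected on more male arrays and 1, Fosl2 1422931_at, on more female arrays, whereas 7.85% and 12.7% of all probe sets favoured males and females and 79.4% were equal. Where only some arrays detected a probe set, 7 of 9 members and 31.4% of all favoured males. The median difference was -1 array over the members and 0 over all probe sets. Within the cerebellum male arrays detected 7.0 ± 0.816 and female arrays 5.75 ± 0.957 of the 13, and within the rest of the brain 11.3 ± 0.5 and 9.5 ± 1.29 (SD, n = 4 each).

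No probe set was called between the sexes over the whole array (0.0%, Fisher's exact test, two-sided, Benjamini-Hochberg adjusted), and 129 (0.286%), no member among them, had an unadjusted p under 0.05. With 4 arrays against 4 within a brain part, the adjustment could again call none. Before it, 106 cerebellum (0.235%) and 55 rest-of-brain (0.122%) differences had a p under 0.05. Among them was 1 member, Egr2 1427682_a_at in the rest of the brain (p = 0.0286, Fisher's exact test, and 1 after adjustment over all). Over all arrays Egr2 1427682_a_at came closest of the members, on 4 male and 0 female arrays (p = 0.0769, Fisher's exact test, two-sided). Within the rest of the brain its 4 male and 4 female arrays did not overlap, as in 18 probe sets of the table (0.0399%), and counting the empty cerebellum arrays too, 2 probe sets (0.00443%), it and Myadml2, had the pattern. Its sex difference was also set against brain part by shuffling sex within each brain part and genotype. The exact permutation p was 0.0556 over 1296 arrangements, and 1 after adjustment over all probe sets. With no cerebellum calls, this repeats the rest-of-brain sex difference at the smallest p its calls allow. It is not a separate test of whether the brain parts differ. Arc was detected on all 4 male cerebellum arrays and on 1 of the 4 female ones, with the other 3 marginal (p = 0.143, Fisher's exact test), and over all arrays on 8 male and 5 female ones (p = 0.2, Fisher's exact test, two-sided). Egr4 and Egr2 1427683_at were each detected on 4 male and 2 female arrays, all in the rest of the brain (p = 0.608, Fisher's exact test, two-sided).

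Calls of the members were also set against each other and against the single-gene probe sets outside the group, by the number of arrays with the same call. Junb and Egr4, Junb and Egr2 1427683_at, and Egr2 1427683_at and Egr4 shared 14 of 16 calls. Junb had the same calls as 96 other probe sets, of which 3110039M20Rik, 9130024F11Rik and Actn2 come first in the alphabet. Egr4 shared 15 calls with 12 probe sets, Crb1, Dmtn and Gm10421 first, and Egr2 1427683_at shared 15 with 6, Crb1, Cx3cl1 and Dnm1l first. Npas4 had the calls of Fzd3 and Slc26a8 on all 16 arrays, and Arc those of 7 probe sets, Baiap2, Bcor and Mei4 first. Fosb was closest to Ldlrad4, with 15 shared calls, and Fosl2 1422931_at to Ctnna1, Tbc1d8 and Wdr66, with 14. Egr3 1436329_at had the calls of 47 others, which missed the same array.

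Other genes of the same response were read from lists. The remaining AP-1 and bZIP genes had 14 probe sets, 5 detected on all arrays, 7 on none and 2 on some. Jun, the usual partner of Fos, was detected on all 16 arrays by both of its probe sets, while Fosl1 and Atf3 were detected on none. The Nr4a nuclear receptors, which are induced as early as Fos, had 4 of 10 probe sets on all arrays, 4 on none and 2 on some, with Nr4a1 on all 16. Of 48 probe sets of other rapid response genes, such as Ier2, Btg2 and Per1, 32 were detected on all arrays, 7 on none and 9 on some. In these lists none was called between the brain parts, either over all probe sets or over those that could be tested, and none had an unadjusted p under 0.05 (Fisher's exact test).

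The late response list, of synaptic and secreted products that follow the early factors, was detected more often in the rest of the brain. Its 22 probe sets were detected at 65.9% in the cerebellum (14 to 16 per array) and 89.8% in the rest of the brain (18 to 21 per array). Over the whole array these shares were 59.1% and 60.3%. Of its 5 probe sets that could be tested, 4 were called higher in the rest of the brain and none in the cerebellum, where 11.5% and 5.55% of all testable probe sets were called in these directions. Homer1 1425710_a_at, of a scaffold protein of excitatory synapses, and Ptgs2 1417263_at, of cyclooxygenase-2, were each detected on 0 cerebellum and 8 rest-of-brain arrays (adjusted p = 0.0043, Fisher's exact test). Inhba 1422053_at, of the activin A subunit, was on 0 and 7, and Nptx2 1420720_at, of a pentraxin that gathers AMPA receptors, on 1 and 8 (both 0.0138, Fisher's exact test). The cerebellum array with Nptx2 1420720_at was the WT female replicate 2, and without it the probe set was on 0 and 8 (0.00288, Fisher's exact test). The other Nptx2 probe set, 1449960_at, was on 1 and 7 (0.0507, Fisher's exact test), and passed without that array (0.0488, Fisher's exact test). Further probe sets of these genes did not separate the brain parts: Ptgs2 1417262_at was on 5 and 8 arrays and 3 other Homer1 probe sets were on all 16. Bdnf, the growth factor, was detected on all 16 arrays by both of its probe sets.

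**Figure D4:**
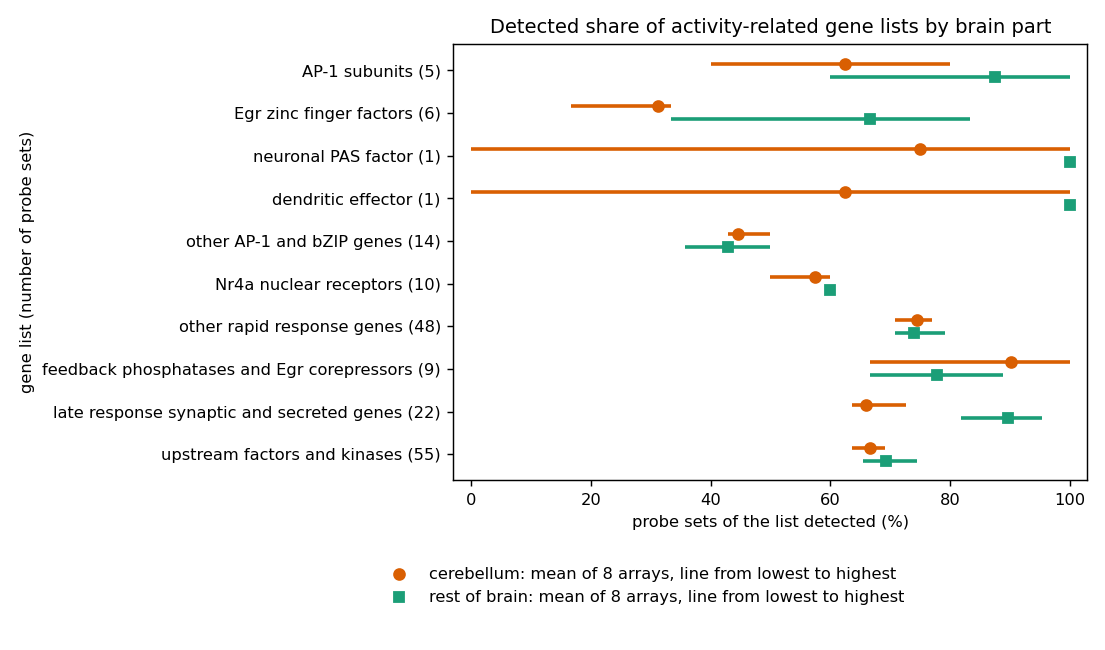
Percentage of each list's probe sets detected (horizontal axis, %) in the cerebellum (orange circles) and the rest of the brain (green squares), as the mean of 8 arrays with a line from the lowest to the highest array; the number of probe sets stands in brackets. The Egr factors stand at 31.3% and 66.7% and their lines meet at 1 end, and the late response genes stand at 65.9% and 89.8% with no overlap.

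Of 9 probe sets of phosphatases and Egr corepressors, 6 were detected on all arrays and 3 on some. The only call over the testable probe sets went to the cerebellum: Dusp5 1437199_at, of a phosphatase that switches off ERK, was on 7 cerebellum and 0 rest-of-brain arrays (adjusted p = 0.0138, Fisher's exact test). The cerebellum array without it was the WT female replicate 2, and leaving that array out gave an adjusted p of 0.00288 (Fisher's exact test). Of 55 probe sets of upstream factors and kinases none was called between the brain parts. The Creb1 probe set 1423402_at, of the factor that binds CRE sites, was detected on 8 WT and 3 KO arrays (unadjusted p = 0.0256, Fisher's exact test, two-sided; 1 after adjustment). It was missed on both KO female cerebellum arrays and on 1 of 2 arrays in each of the other KO groups, with 2 of these 5 calls marginal and 3 at level 0. With marginal calls counted as detected it was on 8 WT and 5 KO arrays (p = 0.2, Fisher's exact test), and Creb1 1428755_at and 1452901_at were detected on all 16 arrays.

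Regional markers moved with brain part too, and their part in the calls above was not tested. Granule cell markers were detected at 13 to 18 of 19 probe sets in the cerebellum and 8 to 13 in the rest of the brain. Of granule cell genes, Barhl1 1418812_a_at and Zic2 1421301_at were on all 8 cerebellum arrays and no other (adjusted p = 0.0043 over the testable probe sets, Fisher's exact test). Pax6 1452526_a_at was on 7 and 0 (0.0138, Fisher's exact test), and Barhl1 1418811_at was on no array. Cortex and hippocampus markers stood at 2 to 4 and 6 of 7. Emx1 1441777_at and Tbr1 1416711_at, of genes that mark cortex, were detected on no cerebellum array and all 8 others, as was Junb. Emx2 1456258_at was on 2 and 8 (0.0409, Fisher's exact test), and Emx1 1444216_at was on no array. Striatal markers stood at 3 to 6 and 6 to 7 of 8. Both probe sets of Drd1, a dopamine receptor of striatal neurons, were on 1 and 8 arrays (0.0138, Fisher's exact test), and the cerebellum array was the WT female replicate 2.

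The other marker lists overlapped more between the brain parts. Purkinje cell markers stood at 7 to 11 and 6 to 11 of 11. Pcp2 1419084_a_at and 1424944_at were each on 7 cerebellum arrays and 1 other (0.0507, and 0.0116 without the WT female cerebellum replicate 2, Fisher's exact test). Pcp2 1419085_at was on 8 and 4. Thalamus and midbrain markers stood at 16 to 19 and 18 to 20 of 23. Of these, Rora 1458145_at was higher in the cerebellum, on 8 and 2 arrays (0.0409, Fisher's exact test), while most other Rora probe sets were on all 16. Slc6a3 1417415_at, of the dopamine transporter, was higher in the rest of the brain, on 1 and 8 (0.0138, Fisher's exact test). Its cerebellum array was again the WT female replicate 2. Hindbrain markers stood at 1 to 8 and 0 to 4 of 11. Slc6a4 1417150_at, Hoxb5 1418415_at, Hoxc5 1439885_at and Hoxa5 1443803_x_at were each on 2 cerebellum arrays, both KO, and on no others. By genotype, no hindbrain probe set had an unadjusted p under 0.05 (Fisher's exact test). Whether hindbrain tissue differed between KO and WT cerebellum samples was not tested. Choroid plexus markers stood at 5 to 9 and 9 of 10, and blood and vessel markers at 2 to 3 and 2 of 5. Astrocyte, oligodendrocyte and microglial markers stood at 14 to 15 and 14 of 16, 13 to 14 and 14 of 15, and 7 to 8 and 8 to 9 of 9.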

How the data were processed

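Affymetrix arrays profiled total RNA from 16 tissue samples. Per the methods and the submitters' processing notes, the authors scanned arrays with Command Console 3.2 and processed them with Expression Console 1.2 and MAS5. A human array is named in the methods, whereas the probe sets carry mouse array names. The deposited value table is a score in 5 levels for 45101 probe sets, read here as detection calls, with detected set at a value above 5e-38. Intensities and fold changes were not analysed here, and the factorial ANOVA of the methods could not be run on calls. Depth shows only as probe sets detected per array. The number of arrays limits the precision.

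By the platform annotation 34958 probe sets had 1 symbol, 932 had several and 9211 stayed unnamed. Members and lists were chosen with earlier results of these data known. Detected against not detected was compared, 8 arrays against 8, with Fisher's exact test, two-sided, called at an adjusted p under 0.05 (Benjamini-Hochberg, whole table). Differences of differences used exact permutation of a factor's labels among the arrays alike in both other factors. They are thus set against no effect of that factor at all. Fisher's exact test with its adjustment was tried on simulated data. The tests of ordered levels and of the replicate block were checked on a single example each. The stratified tests and the permutation were not checked in this way. Alternatives were the testable probe sets only, marginal calls as detected, level -2 as detected, ordered levels, no shared probe sets, counting by gene, stratified tests, a replicate block and leaving out each array. Promoter windows came from RefSeq (GRCm38.p6), searched on both strands.

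Named were all members, list genes with a difference of at least 6 arrays between brain parts or 5 between genotypes (at most 6 a list), and up to 3 probe sets with the calls most like each member. Scripts ran in Python 3.11.15 (scipy 1.17.1, numpy 2.4.6, pandas 2.3.3), and figures were drawn with matplotlib 3.10.9.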

Additional observations from a re-analysis of the deposited data

Results flagged for a closer look

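Among male rest-of-brain arrays, KO replicate 1 detected 12 of the 13 immediate early gene probe sets while the other 3 arrays detected 11 each, and it was singled out as a value far from the rest of its group. Fosl2 1422931_at, detected there and not on the other 3, is the difference. In the WT rest of the brain the WT female replicate 2 detected 10 while the other 3 arrays detected 11 each, and it was singled out in the same way. Both gaps are 1 probe set, among 20 checks over 10 groupings. The check divides the gap to the next count by the range. Where the other 3 counts are equal, any differing count is therefore flagged, however small the gap.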

How the results depend on the processing

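Between the brain parts, 0 members were called over all probe sets (Fisher's exact test), and 3 with only the testable probe sets (Junb, Egr2 1427683_at and Egr4), with or without marginal calls as detected and in every run of this kind without 1 array (lowest 3, highest 3). Junb alone was called with ordered levels (1 member), without probe sets that can cross-hybridize (1) and by gene (1). Without each array in turn the count was 1 at lowest and highest, Junb each time. Since a complete switch keeps its p with an array fewer and others can only join, this says little about Junb. Over all probe sets these runs called 144 to 257, and 705 to 986 of the testable ones, both highest without the WT female cerebellum replicate 2. No member was called with marginal calls or level -2 as detected, within strata, or with the replicate block (0). Within strata and with the replicate block, the smallest p possible is too large for any call after adjustment, given how few probe sets switch completely. Those settings therefore decide nothing. The genotype and sex comparisons called 0 members under every setting, and no direction reversed. Those within 1 brain part could call none. Same-numbered replicates correlated at -0.0181 to 0.0647 in their deviations. Whether same-numbered samples come from the same mouse was not tested. The mean differences per array kept their direction without each array: -4.34 to -3.77 for brain part, -1.05 to -0.0536 for genotype and -1.98 to -1.09 for sex. For genotype and sex, a missing array leaves the brain parts unequal in a group, so the gap between them widens these ranges. The runs of the testable probe sets with an array left out or with marginal calls, those within 1 brain part, and Creb1 with marginal calls were chosen after seeing the data. The adjustment over all probe sets turns on how many probe sets switch completely, 141 being needed and 140 present. Calls cannot show changes in genes detected throughout, such as Fos and Egr1.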
